A study of Mus musculus with 6 samples.

Results

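Oligodendrocyte lineage and myelin genes were examined in ribosome-bound mouse RNA collected after saline or lipopolysaccharide (LPS), the endotoxin of Gram-negative bacteria. The gene group holds 32 genes named for their place in this lineage. No measured value enters the list of genes, although it was written with earlier results of these data known. Signal entered the rule only in the choice between several clusters of the same gene. Each was read from the transcript cluster, the unit that summarises a gene's probes, that carries its symbol in the authors' deposited comparison table. All 32 were found among the 34472 clusters tested. Qdpr had 2 clusters, and the one with the higher mean over the 6 arrays was used. RefSeq accessions of the chosen cluster pointed to the gene of the same symbol for 32 of 32.

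Both groups were transgenic mice that carry the ribosomal protein RPL10a fused to Flag and EGFP, driven by CD11b, a promoter of myeloid cells such as microglia. Tagged ribosomes were purified with their mRNA by translating ribosome affinity purification (TRAP), and 100 ng per sample was labelled for an Affymetrix mouse gene array. The saline group had 3 arrays and the LPS group had 3 arrays, the latter after 5 mg/kg for 24 h. Animals of both sexes were 2 to 3 months old, the source label of each array gives 5 mice, and the arrays of a group are labelled as biological replicates. The labels used here name no tissue, and RNA from before the purification was not analysed here. CD11b is not a gene of oligodendrocytes, and how their mRNA came into these samples was not tested.

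Oligodendrocytes wrap axons of the central nervous system in myelin, a stack of membrane rich in galactolipids and in a small set of dedicated proteins. They arise from progenitors that carry the platelet-derived growth factor receptor Pdgfra and the proteoglycan Cspg4, under the transcription factors Olig1, Olig2, Sox10 and Nkx2-2. Myelin mRNAs such as that of Mbp travel far into the cell processes and are translated there.

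All values below are log2 signals made by the authors with RMA, and a difference is LPS minus saline on that scale. Signals of different clusters depend on their probes, so levels were compared between arrays and not between genes. The members gave signals from 5.79 to 11.42. The further oligodendrocyte marker Mag, an adhesion protein of the innermost myelin, gave 9.08 to 9.45. Pmp2 and Prx, which mark the Schwann cells of peripheral nerve, gave 3.01 to 4.38. Neuron markers gave 7.08 to 13.48 and microglia markers 4.73 to 8.02. These levels come from different probes and do not by themselves show which cell types were present. In bulk RNA, fewer cells of a type and less RNA per cell cannot be told apart.

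Array medians over the clusters tested lay between 5.15 and 5.35 after saline and between 5.17 and 5.42 after LPS, with the array numbered 3 the highest of each group. One cluster passed the threshold of 0.05 over all clusters, 0.0029% of those tested: Ifi44, an interferon-induced gene, with 4.81, 4.63 and 5.25 after saline and 7.70, 7.28 and 7.67 after LPS (limma adjusted p = 0.0395). Differences were fitted with limma over all clusters with Benjamini-Hochberg adjustment, and errors given as SE are those of that fit.

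Oligodendrocyte genes were mostly lower after LPS, with differences from -0.81 to 0.32, and no single gene passed the test over all clusters. The difference was below 0 in 27 of the 32 genes, against 50.4% of all clusters and 54.4% of the clusters brighter than the median cluster. Its median over the 32 genes was -0.13, against -0.0016 over all clusters. Of the 32, 0 passed the threshold after adjustment over all clusters (limma, lowest adjusted p = 0.9999), and 3 had an unadjusted p under 0.05, each lower after LPS, against 0.772% of all clusters in that direction and 1.49% in the other. The 3 LPS arrays lay below all 3 saline arrays in 6 genes, or 18.8%, against 3.1% of all clusters and 3.65% of the brighter ones. They lay above all saline arrays in 0 of the 32, against 3.61% of all clusters and 3.37% of the brighter ones. The other 26 genes had overlapping groups.

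Single arrays moved these summaries. The median was -0.21 when saline 1 was left out and -0.22 when either saline 2 or LPS 1 was. Leaving out saline 3 brought it to -0.10, leaving out LPS 2 to -0.08, and leaving out LPS 3 to -0.26. The median of all clusters moved as well, to -0.03 without saline 1 or saline 2 and 0.06 without saline 3. It was 0.03 without LPS 1 or LPS 2 and -0.06 without LPS 3. Genes with an unadjusted p under 0.05 in the limma fit numbered 6 without LPS 1, 1 without LPS 2 and 5 without LPS 3, against 3.02%, 1.7% and 2.95% of all clusters. Without saline 3 there were 4, of which 1 was higher after LPS, against 3.93% of all clusters. The number of genes below 0 was 20 without saline 3 and 21 without LPS 2, when 38.8% and 43.3% of all clusters were below 0. It stayed between 24 and 27 without any other single array. Without LPS 1, 10 genes had the remaining LPS arrays below all saline arrays (7.21% of all clusters). Another 1 had them above, for which the share over all clusters was not computed. Without LPS 3, 10 genes were below (12.4% of all clusters), and without both arrays numbered 3 there were 12 (17.8% of all clusters).

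**Figure D1:**
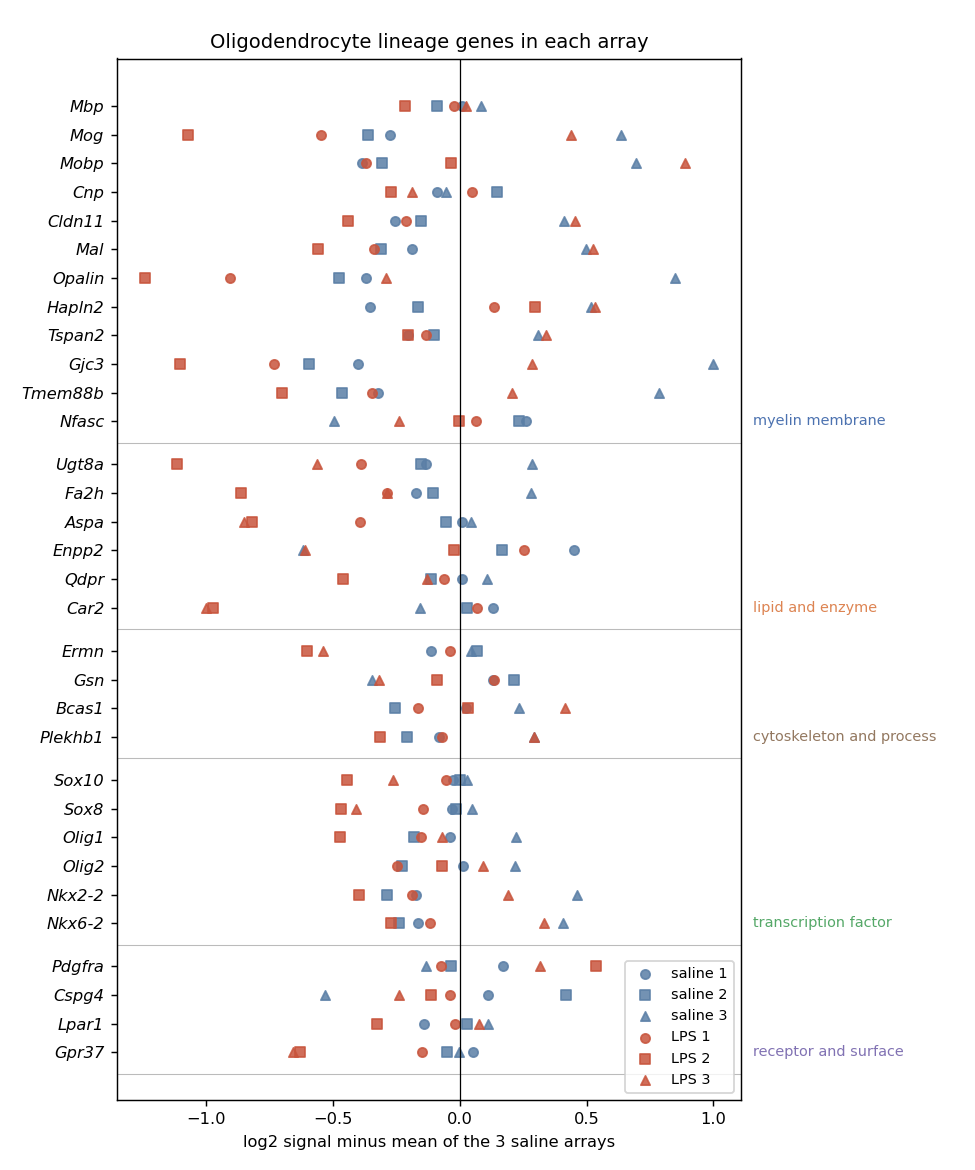
Log2 signal of each of the 32 genes in each array, minus the mean of its 3 saline arrays (x axis), with genes grouped by role; blue marks are saline arrays, red marks LPS arrays, and circle, square and triangle are the numbers 1, 2 and 3. In Aspa, Ugt8a, Fa2h, Sox8, Sox10 and Gpr37 the red marks lie left of every blue mark, while in Mog, Mobp, Mal, Gjc3 and Tmem88b both triangles lie to the right.

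Lipid, metabolic and secreted enzymes held the greatest differences as a group. All 6 were lower after LPS, with differences from -0.69 to -0.13 and a median of -0.56, and 3 of them had groups that did not overlap. Aspa encodes aspartoacylase, which splits N-acetylaspartate of neurons and so supplies acetate for lipid synthesis. It gave 7.66, 7.60 and 7.69 after saline and 7.26, 6.83 and 6.80 after LPS. The saline arrays lay within 0.10 of each other, and every LPS array was lower. The group means were 7.65 ± 0.05 and 6.96 ± 0.26 (SD, n = 3 each), a difference of -0.69 ± 0.17 (SE) or 1.61 times more after saline. This was the smallest p of the 32 genes in the limma fit (unadjusted p = 0.00383, adjusted p = 0.9999). In the authors' deposited table its analysis-of-variance p was 0.0102 and its adjusted p 0.9999.

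Ugt8a encodes the galactosyltransferase that makes galactocerebroside, the chief glycolipid of myelin. Its signals were 8.75, 8.73 and 9.17 after saline and 8.49, 7.77 and 8.32 after LPS. All LPS arrays were below all saline arrays, with LPS 2 the lowest. The difference was -0.69 ± 0.23 (SE), with a 95% interval from -1.21 to -0.17 (limma unadjusted p = 0.0159). Fa2h, which adds a hydroxyl group to the fatty acids of the same lipids, gave 8.31, 8.37 and 8.76 after saline. After LPS it gave 8.19, 7.62 and 8.19, again without overlap, and LPS 2 was again the lowest. Its difference was -0.48 ± 0.22 (SE), with an interval from -0.97 to 0.01 (limma unadjusted p = 0.0555), and was -0.29 without LPS 2.

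The other enzymes had overlapping groups. Car2, a cytosolic carbonic anhydrase abundant in oligodendrocytes, gave 11.06, 10.96 and 10.77 after saline and 11.00, 9.96 and 9.93 after LPS. LPS 1 thus lay among the saline arrays and the other LPS arrays about 1 log2 unit below them, and the difference was -0.64 ± 0.29 (SE). Without LPS 1 it was -0.99, and in the authors' deposited table, which uses bi-weight means, LPS was lower by a signed fold of -2. Qdpr, which recycles the cofactor tetrahydrobiopterin, differed by -0.22 ± 0.17 in the cluster used, or -0.096 without LPS 2, and by -0.30 ± 0.20 in its second cluster. Enpp2, the secreted enzyme autotaxin that makes lysophosphatidic acid, differed by -0.13 ± 0.32, and by 0.10 without saline 1 and 0.11 without LPS 3. Choroid plexus also expresses Enpp2. There, Ttr gave 11.43 to 11.89 over the 6 arrays, and the mean over Ttr, Folr1 and Kl was 8.12 to 8.42 after saline and 8.04 to 8.30 after LPS; the part of that tissue in the Enpp2 signal was not tested.

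The 6 transcription factors among the members were also on the lower side, by less. The 6 differences ran from -0.34 to -0.02 with a median of -0.18. Sox8 and Sox10 are related factors that cooperate in oligodendrocyte differentiation. Sox8 gave 8.82, 8.84 and 8.90 after saline and 8.70, 8.38 and 8.44 after LPS, a difference of -0.34 ± 0.16 (SE) between groups that did not overlap. The limma p was 0.0574 before adjustment, and the p in the authors' deposited table was 0.0282. Sox10, which directly drives myelin genes, gave 7.71, 7.73 and 7.76 after saline and 7.68, 7.29 and 7.47 after LPS. Here LPS 1 was 0.03 below the lowest saline array, so the lack of overlap rests on a narrow margin, and the difference was -0.26 ± 0.16 (SE), or -0.16 without LPS 2.

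Olig1 and Olig2 encode related basic helix-loop-helix factors that specify the lineage, and 1 gene starts between them in the GRCm38.p6 annotation. Olig1 differed by -0.23 ± 0.18 (SE) and Olig2 by -0.08 ± 0.18, both with overlapping groups. That of Olig1 was -0.12 without saline 3 and -0.11 without LPS 2. The homeodomain factors Nkx2-2, which times the step from progenitor to myelinating cell, and Nkx6-2 differed by -0.13 ± 0.24 and -0.02 ± 0.23. Without saline 3 the differences of Olig2, Nkx2-2 and Nkx6-2 were 0.03, 0.10 and 0.18, and those of Olig2 and Nkx6-2 were 0.0098 and 0.03 without LPS 1. That of Nkx6-2 was 0.11 without LPS 2. The direction for these 3 factors therefore depends on single arrays.

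Receptors and surface proteins did not share a direction. Gpr37, an orphan receptor that restrains the timing of oligodendrocyte differentiation, gave 8.75, 8.65 and 8.69 after saline and 8.54, 8.06 and 8.04 after LPS. The groups did not overlap, and the difference was -0.48 ± 0.18 (SE; limma unadjusted p = 0.0281). Pdgfra, the growth factor receptor of progenitors, gave 8.02, 7.82 and 7.72 after saline and 7.78, 8.39 and 8.17 after LPS. LPS 1 lay among the saline arrays and the other LPS arrays above them, and the difference was 0.26 ± 0.20, or 0.43 without LPS 1 and 0.12 without LPS 2. Cspg4, the other progenitor surface marker, differed by -0.13 ± 0.24, or 0.08 without saline 2, and the lysophosphatidic acid receptor Lpar1 by -0.09 ± 0.17, or 0.03 without LPS 2.

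Pdgfra is also expressed by fibroblasts and Cspg4 by pericytes. The fibroblast genes Dcn, Col1a1 and Lum differed by 0.82 ± 0.26, 0.33 ± 0.15 and 0.18 ± 0.15 (SE), and their mean was 6.67 to 6.89 after saline and 7.02 to 7.33 after LPS. The mean of the pericyte genes Pdgfrb, Rgs5 and Kcnj8 was 6.37 to 6.77 after saline and 6.38 to 6.79 after LPS. The part of these cells in the Pdgfra and Cspg4 signals was not tested.

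Among the proteins of the myelin membrane the groups overlapped in each gene. Of 12 genes, 9 were below 0 and 3 above, with a median of -0.10 and a range from -0.81 to 0.32. Within the numbers 1 to 3 of the arrays, 5 of the 12 were lower after LPS at each number, Opalin, Gjc3 and Mog among them, and 2 were higher at each. These are 41.7% and 16.7%, against 13.5% and 13.1% of all clusters. Mbp, which holds the cytoplasmic faces of the membrane together, gave 9.02, 8.92 and 9.09 after saline and 8.99, 8.80 and 9.04 after LPS. These arrays were close, the difference was -0.07 ± 0.15 (SE), and its 95% interval ran from -0.42 to 0.27, the narrowest range of the 32 genes. The difference of Mbp was 0.00045 without LPS 2. Cnp, an enzyme that keeps cytoplasmic channels open in myelin, differed by -0.14 ± 0.16 with an interval from -0.51 to 0.23, and by -0.23 without LPS 1 and -0.064 without saline 2.

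Opalin, a glycoprotein of the paranodal and inner loops of myelin, had the greatest difference of the 32. It gave 7.31, 7.21 and 8.53 after saline and 6.78, 6.44 and 7.39 after LPS. Both arrays numbered 3 were the highest of their group, and LPS 3 lay above 2 saline arrays, so the groups overlapped. The difference was -0.81 ± 0.38 (SE), or -0.39 without saline 3 (limma unadjusted p = 0.0632 with all arrays). The bi-weight means of the authors' deposited table, which give less weight to an array far from the others, were 7.26 for saline and 6.84 for LPS, a signed fold of -1.35. Gjc3, a connexin of oligodendrocytes, gave 8.97, 8.78 and 10.37 after saline and 8.64, 8.27 and 9.66 after LPS, again with both arrays numbered 3 the highest. Its difference was -0.52 ± 0.47, and ran from -0.92 without LPS 3 to -0.02 without saline 3.

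The remaining membrane genes are given by their differences. Mog, on the outermost face of myelin, differed by -0.39 ± 0.40 (SE), by -0.08 without saline 3, by -0.05 without LPS 2 and by -0.81 without LPS 3. Mobp, a small basic protein of compact myelin, differed by 0.16 ± 0.38, by -0.03 without saline 1 and by -0.20 without LPS 3. Hapln2, a link protein of the matrix at nodes of Ranvier, differed by 0.32 ± 0.24, the highest value of the 32, and by 0.15 without saline 1 and 0.58 without saline 3. Cldn11, which forms the tight junctions of myelin, Mal, a proteolipid of membrane sorting, Tspan2, a tetraspanin, and Nfasc, an adhesion protein of paranodes and nodes, lay between -0.12 and 0.0005. Tmem88b differed by -0.28 ± 0.36. Nfasc is also made by neurons, and its cluster does not part the glial from the neuronal form.

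Genes of the cytoskeleton and of cell processes had a median of -0.06 over 4 genes. Ermn, a cytoskeletal protein of myelinating oligodendrocytes, gave 9.35, 9.53 and 9.50 after saline and 9.42, 8.86 and 8.92 after LPS. As with Car2, LPS 1 lay among the saline arrays and the others below, and the difference was -0.39 ± 0.19 (SE). Bcas1, which marks cells that have begun to myelinate, gave 6.66, 6.38 and 6.87 after saline and 6.47, 6.67 and 7.05 after LPS. The groups overlapped, and the difference was 0.09 ± 0.21, but -0.04 without saline 2 and -0.07 without LPS 3. The actin-severing protein Gsn and the pleckstrin homology protein Plekhb1 differed by -0.09 ± 0.20 and -0.03 ± 0.21.

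**Figure D2:**
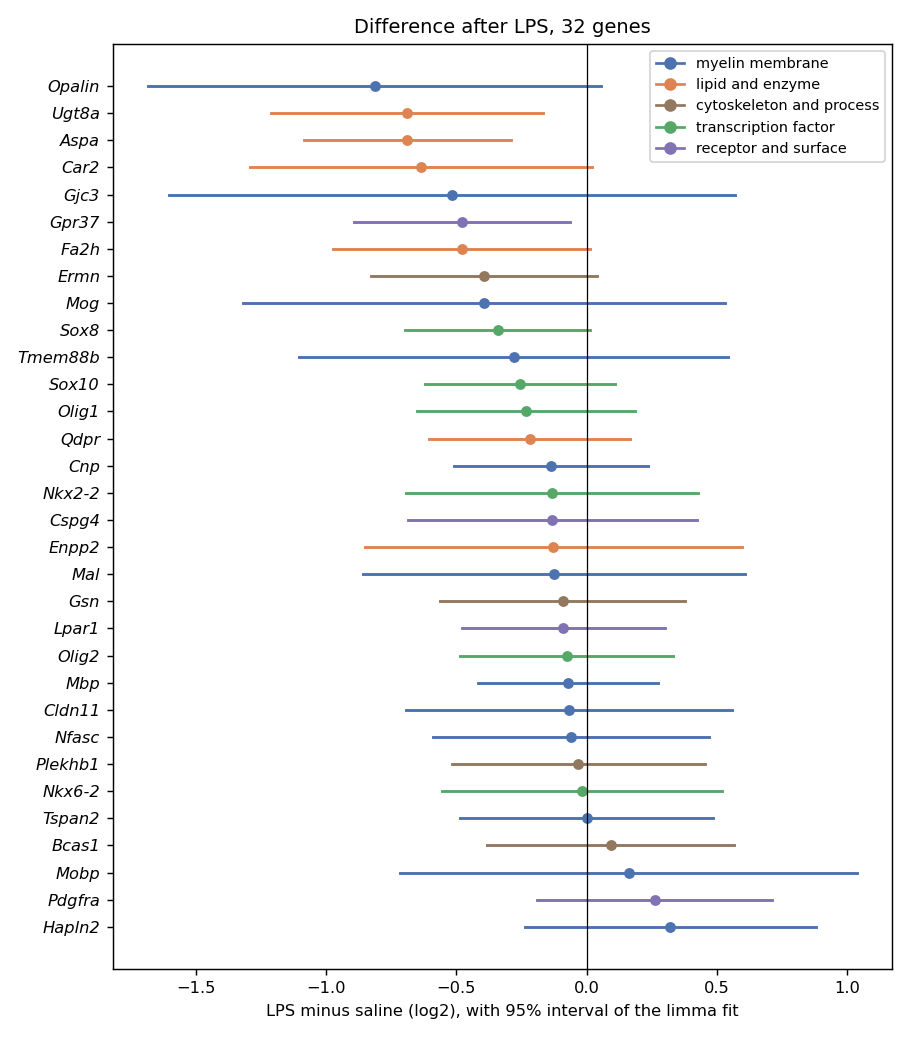
LPS minus saline difference on the log2 scale (x axis) for the 32 genes in order of size, with the 95% interval of the limma fit; colours give the role. Opalin is at -0.81 and Hapln2 at 0.32, and only the intervals of Ugt8a, Aspa and Gpr37 leave out 0, before any adjustment for the number of clusters.

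**Figure D3:**
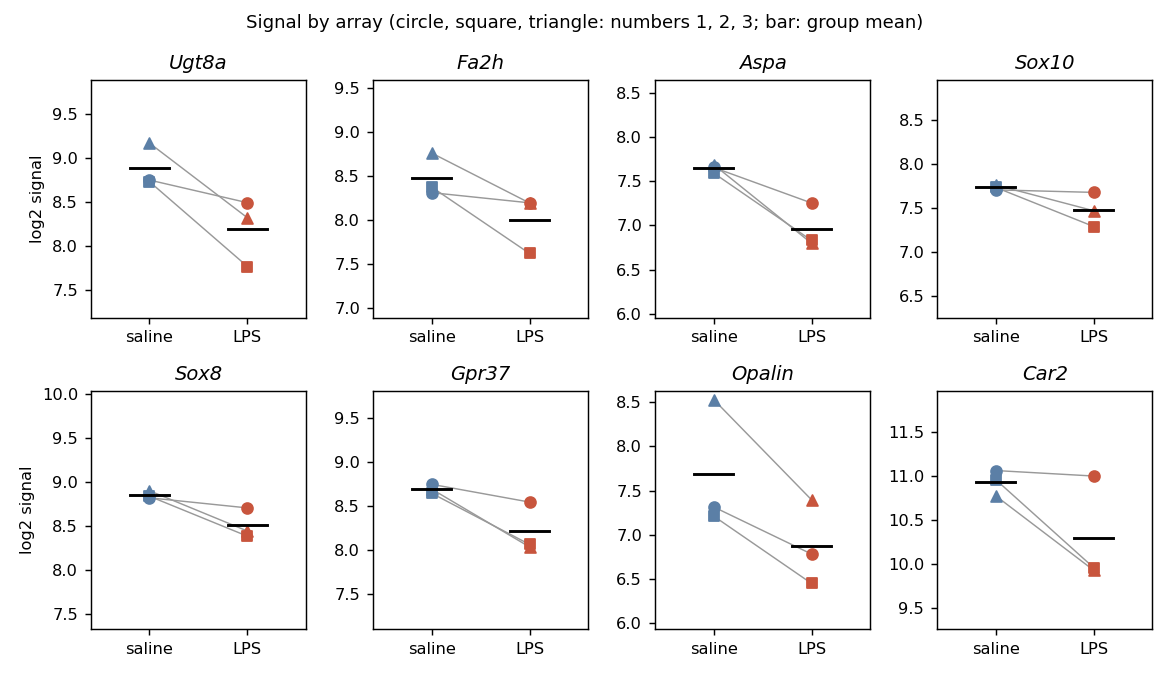
Log2 signal (y axis, the same span of 2.7 units in each panel) in every array for the 6 genes whose groups did not overlap and for Opalin and Car2; grey lines join arrays of the same number and black bars are group means. Car2 in LPS 1 is level with the saline arrays, while Opalin is high in both arrays numbered 3.

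The promoters of genes whose groups did not overlap are shown because these members lay on the same side after LPS. RefSeq windows of the GRCm38.p6 build, from 250 bases before to 50 after the start, were at hand for 25 of the 32 genes and for 4 of these 6. Capitals mark the hexamers AACAAT and ACAAAG, which resemble sites of Sox factors, and CAGCTG, an E-box of the kind bound by basic helix-loop-helix factors, on either strand. All 4 windows lie on the minus strand and are written 5′ to 3′ along the gene.
Aspa, chr11:73324588-73324887: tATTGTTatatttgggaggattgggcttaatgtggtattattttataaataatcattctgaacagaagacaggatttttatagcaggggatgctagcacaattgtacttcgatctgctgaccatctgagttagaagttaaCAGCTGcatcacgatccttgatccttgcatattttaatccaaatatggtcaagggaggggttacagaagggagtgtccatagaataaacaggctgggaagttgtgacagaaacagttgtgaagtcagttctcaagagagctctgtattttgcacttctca
Ugt8a, chr3:125938603-125938902: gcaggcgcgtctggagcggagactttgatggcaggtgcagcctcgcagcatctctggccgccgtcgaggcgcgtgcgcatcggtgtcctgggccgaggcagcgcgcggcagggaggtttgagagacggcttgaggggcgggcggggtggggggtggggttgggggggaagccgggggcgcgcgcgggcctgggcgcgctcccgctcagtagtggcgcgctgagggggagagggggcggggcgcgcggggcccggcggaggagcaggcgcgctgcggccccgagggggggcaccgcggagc
Sox8, chr17:25570637-25570936: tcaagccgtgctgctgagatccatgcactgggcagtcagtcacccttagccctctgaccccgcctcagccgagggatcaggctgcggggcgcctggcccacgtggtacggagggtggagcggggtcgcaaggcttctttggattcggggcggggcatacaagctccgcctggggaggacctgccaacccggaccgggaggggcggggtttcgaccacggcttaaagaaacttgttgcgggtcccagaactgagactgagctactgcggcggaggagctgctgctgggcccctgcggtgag
Gpr37, chr6:25689931-25690230: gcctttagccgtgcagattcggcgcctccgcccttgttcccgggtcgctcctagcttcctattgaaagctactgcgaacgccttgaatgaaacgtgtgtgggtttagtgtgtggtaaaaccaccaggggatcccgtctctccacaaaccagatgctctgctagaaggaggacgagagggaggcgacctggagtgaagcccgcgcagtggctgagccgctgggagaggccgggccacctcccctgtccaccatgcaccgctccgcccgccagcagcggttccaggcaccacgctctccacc

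The Aspa window held 1 AACAAT, on the opposite strand, and 1 CAGCTG, and the windows of Ugt8a, Sox8 and Gpr37 held 0 of the 3 hexamers. Over all 32851 windows of this length, AACAAT was present in 10.7%, ACAAAG in 18.7% and CAGCTG in 16.3%. Over the 32 windows of the 25 member genes, 5 held AACAAT, 7 held ACAAAG and 6 held CAGCTG. The Aspa window was 39.0% G and C with 2 CpG dinucleotides. By contrast the Ugt8a window was 78.3% G and C with 40 CpG, Sox8 66.3% with 21 and Gpr37 62.7% with 21, against a median of 52.7% and 7 over all windows. The member windows had medians of 56.7% and 11 CpG, so the Aspa window lay below them and the other 3 above.

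The LPS arrays were unlike each other for these genes. LPS 2 was the lowest LPS array in 20 of the 32 genes, LPS 3 in 7 and LPS 1 in 5, while over all clusters these shares were 38.9%, 20.6% and 40.6%. Signals below all 3 saline arrays were found for 11 genes in LPS 1, 22 in LPS 2 and 10 in LPS 3, or 34.4%, 68.8% and 31.2%, against 26.9%, 29.1% and 14.8% of all clusters. The median deviation from the saline mean was -0.14, -0.42 and -0.02 in LPS 1, 2 and 3, against -0.06, -0.07 and 0.13 over all clusters. In saline 1, 2 and 3 this median was -0.09, -0.11 and 0.22, against -0.06, -0.05 and 0.11 over all clusters. By this median LPS 3 lay above saline 1 and saline 2, and LPS 1 lay close below them, so the groups overlapped. For the 6 lipid and metabolic enzymes the median was -0.18, -0.84 and -0.59 in LPS 1, 2 and 3. It was 0.01, -0.08 and 0.07 in saline 1, 2 and 3.

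A second pattern set the arrays numbered 3 apart in both groups. In saline 3 and LPS 3 the myelin membrane genes exceeded the mean of the other 2 arrays of their group by a median of 0.76 and 0.76, against 0.17 and 0.20 over all clusters. Gjc3 was 1.50 and 1.20 higher, Mobp 1.04 and 1.09, Mog 0.95 and 1.25, and Mal 0.75 and 0.97. For Mbp the offsets were 0.12 and 0.14, and for Cnp -0.08 in both. Enpp2 was lower by -0.93 and -0.72, Nfasc by -0.74 and -0.27, Gsn by -0.52 and -0.34, and Cspg4 by -0.80 and -0.17. Over the 32 genes, 20 were higher in both arrays numbered 3, 7 were lower in both and 5 differed in sign. These are 62.5% and 21.9% for higher and lower in both. Over all clusters 55.5% were higher in both and 18.1% lower in both. Among the brighter clusters the shares were 60% and 20.8%, close to those of the 32 genes. The labels do not say what the numbers stand for.

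**Figure D4:**
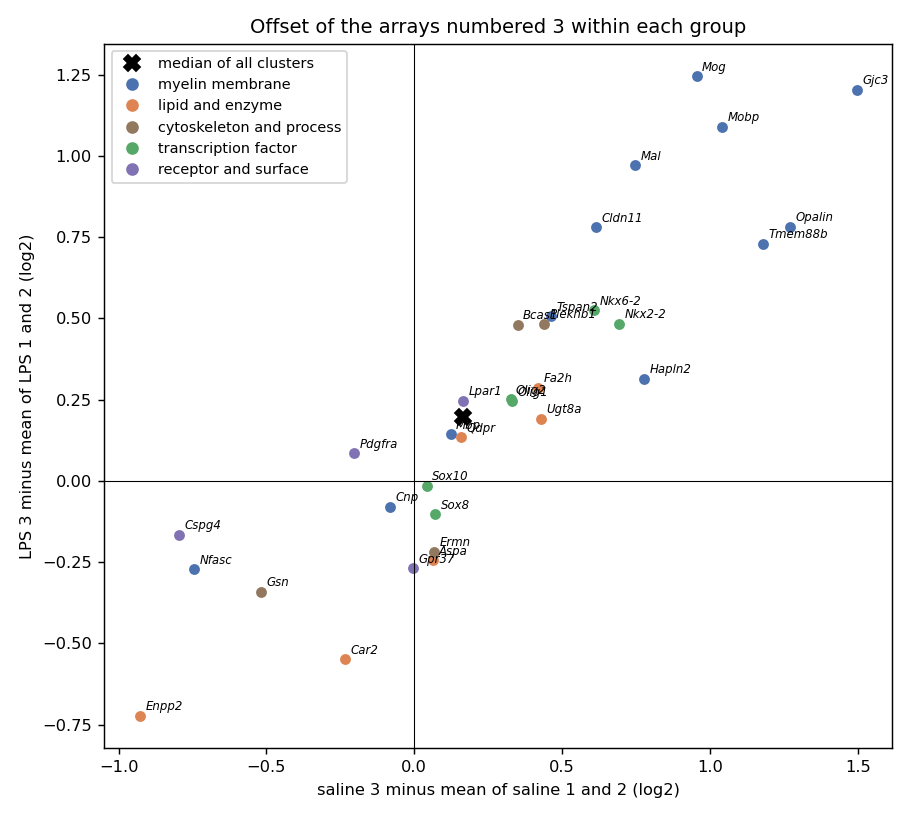
Offset of the array numbered 3 from the mean of the other 2 arrays of its group, in saline (x axis) and in LPS (y axis), in log2 units; each point is a gene, coloured by role, and the black cross is the median of all clusters. Gjc3, Mog and Mobp lie at the upper right, and Enpp2 at the lower left.

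Because of this pattern the same comparison was read within numbers, though the arrays numbered 1 or 2 were not shown to be pairs. LPS was lower than saline at each of the 3 numbers in 15 of the 32 genes, or 46.9%, against 13.5% of all clusters and 16.5% of the brighter ones. It was higher at each number in 2, Mobp and Hapln2, or 6.25%, against 13.1% of all clusters. Opalin differed by -0.54, -0.77 and -1.14 within the numbers 1, 2 and 3, Gjc3 by -0.33, -0.51 and -0.71, and Mog by -0.27, -0.71 and -0.20. With the number as a block in the limma fit, 9 members had an unadjusted p under 0.05 instead of 3, against 2.52% of all clusters lower after LPS and 3.32% higher. With the block the SE was 0.16 instead of 0.38 for Opalin, 0.14 instead of 0.47 for Gjc3 and 0.15 instead of 0.40 for Mog. The 9 were Opalin, Gjc3, Mog, Ugt8a, Fa2h, Aspa, Car2, Sox8 and Gpr37, each lower after LPS. Still 0 of the 32 passed over all clusters with the block, as 0.0087% of all clusters did, and the lowest adjusted p was 0.373, for Opalin.

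Further genes of the lineage, on a list of 42 beside the members, were read the same way. Of the 41 found by symbol, 28 were below 0 and 13 above, with a median of -0.13, and 0 passed the threshold over all clusters (limma). The share below 0 was 68.3%, against 84.4% of the members, 50.4% of all clusters and 54.4% of the brighter ones. Without saline 3 the median was -0.01, and without LPS 2 it was -0.07. Unadjusted limma p-values under 0.05 occurred in 3, with 2 lower after LPS (4.88%) and 1 higher (2.44%). Over all clusters these shares were 0.772% and 1.49%. Pllp, a proteolipid of myelin, differed by -0.73 ± 0.29 (SE), and Adamts4, a protease made by mature oligodendrocytes, by -0.41 ± 0.18. Apod, a lipid-binding apolipoprotein that oligodendrocytes and other cells secrete, went the other way. It gave 9.60, 9.20 and 9.34 after saline and 10.13, 10.88 and 10.85 after LPS, a difference of 1.24 ± 0.23 with no overlap (limma unadjusted p = 0.000658, adjusted p = 0.567).

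Among the 24 mature genes of that list the median was -0.11, and among the 17 progenitor and newly formed ones -0.19. Gpr17, a receptor of newly committed cells, gave 7.44, 7.19 and 7.93 after saline and 7.08, 6.43 and 7.30 after LPS. Its groups overlapped, and the difference was -0.58 ± 0.27 (SE). Mag differed by 0.03 ± 0.17 and Myrf, the factor that switches on myelin genes, by 0.31 ± 0.23. Mag and Mbp were thus each within 1 SE of 0.

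Markers of other cells were read beside these values. Of 7 neuron markers, 4 were below 0 and 3 above, the median was -0.02, and their mean was 10.81 to 11.04 after saline and 10.83 to 10.98 after LPS. Of 7 astrocyte markers, 6 were above 0 with a median of 0.25, and their mean was 8.47 to 8.71 after saline and 8.80 to 8.95 after LPS. Of 5 endothelial markers, 4 were above 0 with a median of 0.23, Cldn5 differing by 0.73 ± 0.27 (SE), and their mean was 5.23 to 5.52 after saline and 5.37 to 5.94 after LPS. Of 7 microglia markers, 6 were below 0 with a median of -0.22, and their mean was 6.59 to 6.84 after saline and 6.28 to 6.58 after LPS. P2ry12 differed by -1.24 ± 0.34 (SE) and Siglech by -0.94 ± 0.24, both without overlap. Each was further below 0 than any of the 32 oligodendrocyte genes. Only Itgam, the gene of CD11b, was above 0, by 0.35 ± 0.17, and its groups did not overlap either. It gave 6.91, 6.79 and 6.46 after saline and 7.10, 7.11 and 6.99 after LPS. Over all clusters, the LPS arrays lay below all saline arrays in 3.1% and above them in 3.61%. In the arrays numbered 3 the neuron markers were lower by a median of -0.29 and -0.26, opposite to the median of the myelin membrane genes. Neither set was uniform. Of the 7 neuron markers 5 were lower in both of these arrays and 2 higher. Of the 12 myelin membrane genes 10 were higher in both and 2 lower. The part of these shifts in the oligodendrocyte values was not tested.

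**Figure D5:**
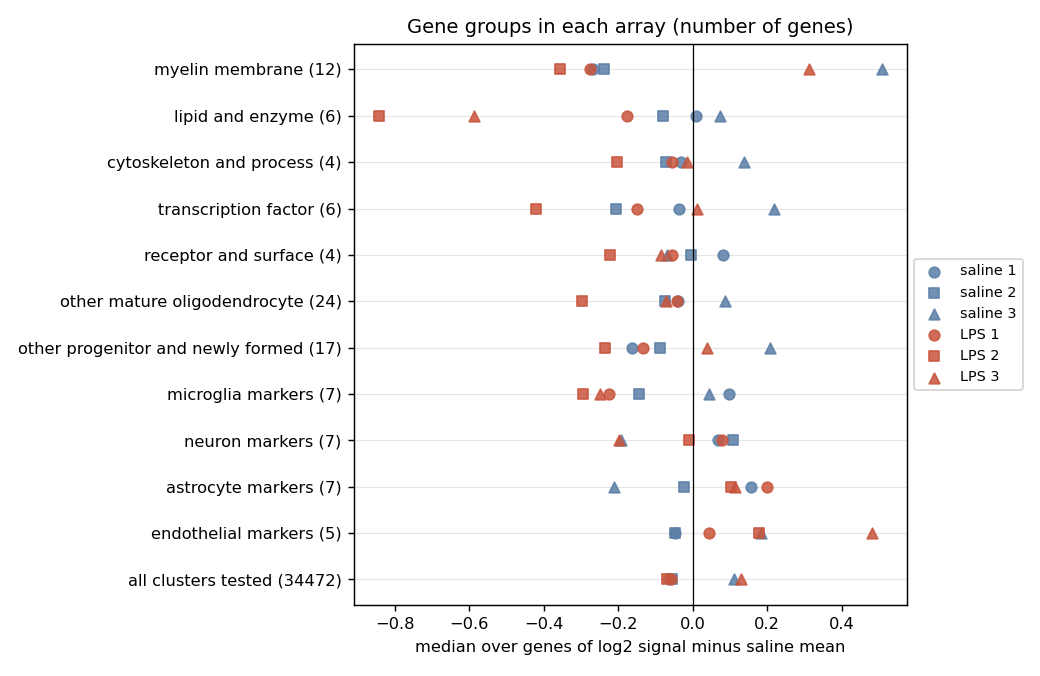
Median over the genes of each group of the log2 signal minus the saline mean (x axis), for the 5 roles, the further lineage genes, markers of other cells and all clusters, with the number of genes in brackets; colours and marks are as in the plot of genes by array. The enzymes lie at -0.84 in LPS 2 and -0.59 in LPS 3, and the myelin membrane genes at 0.51 in saline 3 and 0.31 in LPS 3.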

How the data were processed

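The 6 arrays were grouped by their titles into 3 saline and 3 LPS arrays. Per the submitters' processing notes, the authors made the deposited log2 signals per transcript cluster by RMA, using Affymetrix Expression Console. RMA compresses differences of dim clusters. Their deposited comparison table, made with Transcriptome Analysis Console 3.0 per the series' design text, gives bi-weight means, a signed linear fold, and analysis-of-variance and adjusted p-values, per the file headers. The genome build was not given in the sources used here. Among 41345 clusters, the 34472 listed in that table were tested, and the other 6873 entered only an alternative.

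LPS minus saline was fitted with limma 3.58.1 in R 4.3.3 (lmFit, eBayes, group as the only term, two-sided, Benjamini-Hochberg over all clusters, threshold 0.05). The procedure was tested on simulated data, with differences larger than any of the members and no shared array offset. That test does not show how the fit performs at differences of the size seen here. The number of arrays limits precision, as does the offset of the arrays numbered 3 where no block is fitted. Members, lists, roles and motifs were chosen with earlier results of these data known. Values are given in full for members with an unadjusted p under 0.05, for those without overlap and for the 2 greatest differences of each role; others were added after their values were seen. Sept4, on the further list, was not found by symbol. Some genes of the lists are not reported here by name. Alternatives were a replicate block, each array left out, both arrays numbered 3 left out, other scalings, array weights, a filter on dim clusters, all clusters, an unmoderated test and averaged clusters.

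The pairing of equal numbers was checked on the data, since the labels give numbers 1 to 3 without a meaning. Deviations from group means correlated by 0.27, 0.12 and 0.56 for the numbers 1, 2 and 3, each above the criterion of 0.1 set beforehand. For number 2 the value was 0.08 over all 41345 clusters. Over the clusters tested, saline 2 correlated with LPS 1 by 0.41 and saline 1 with LPS 2 by 0.14. Deviations cancel out within a group, so a shared offset of the arrays numbered 3 can by itself make these correlations positive. The check therefore does not show that the arrays numbered 1 or 2 are pairs. The readings within numbers and with the block assume it.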

Additional observations from a re-analysis of the deposited data

How the results depend on the processing

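Under the 15 alternatives 0 of the 32 genes passed over all clusters (limma or the unmoderated test), with 1 to 9 at an unadjusted p under 0.05, and the median over them stayed below 0. Clusters past the threshold numbered 3 with the replicate block, 0 to 12 with single arrays left out (12 without LPS 1), 2 without both arrays numbered 3, 22 with array weights, 0 in limma over all 41345 clusters (1083 at an unadjusted p under 0.05) and 0 with the unmoderated test (1080). Genes whose groups did not overlap numbered 6 to 11 with single arrays left out and 13 without both arrays numbered 3, where fewer arrays make overlap rarer. Of the 11, found without LPS 1, 10 were below, against 7.21% of all clusters, and 1 above. Of the 13, 12 were below, against 17.8% of all clusters, and 1 above. With arrays left out, the share of all clusters above was not computed, nor the share below without a single saline array or LPS 2. The replicate block changed no call among the 32, though 9 instead of 3 had an unadjusted p under 0.05. Of 480 differences recomputed for single genes, 445 kept their sign and 35, in 16 genes, did not. None of these 16 differed by more than 0.28 with all arrays. Part of the 445 kept signs was fixed in advance. The block, the unmoderated test, the filter on dim clusters and the fit over 41345 clusters leave each difference unchanged. They could not move the median over the 32 genes either, and averaged clusters could change only Qdpr. With single arrays left out the differences ran from -0.20 to 0.51 for Mobp, -0.17 to 0.15 for Tspan2, -0.31 to 0.072 for Nfasc, -0.44 to 0.11 for Enpp2, -0.27 to 0.021 for Gsn, -0.067 to 0.22 for Bcas1, -0.40 to 0.078 for Cspg4, and -0.33 to 0.14 for Cldn11. They ran from -0.45 to 0.12 for Mal, -0.52 to 0.11 for Tmem88b, -0.19 to 0.12 for Plekhb1, -0.19 to 0.033 for Olig2, -0.29 to 0.097 for Nkx2-2, -0.19 to 0.18 for Nkx6-2, -0.12 to 0.00045 for Mbp, and -0.17 to 0.028 for Lpar1. Without both arrays numbered 3 the differences of Tspan2 and Nkx6-2 were -0.015 and 0.0094, that of Tspan2 was -0.035 with arrays centred on their medians, and that of Nkx6-2 was 0.0074 with quantile normalization repeated. The cause of these reversals was not tested. With 3 arrays per group, the median SE of 0.21 over the 32 genes limits what could be separated.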
